A study of Mus musculus with 2 samples.

Results

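The genes described here encode the proteins of the cytoplasmic ribosome in GL261, a mouse glioma cell line from the C57BL/6 strain, and were chosen by symbol alone. A gene was taken when its symbol began with Rps or Rpl, and the Rps6k genes, which encode kinases, were left out. This gave 91 of the 32285 genes in the count tables. Of these, 34 carried a small subunit symbol (Rps) and 57 a large subunit symbol (Rpl). Of the 91, 77 encode core proteins present in nearly every ribosome (31 small, 46 large), and the other 14 are paralogs, pseudogene copies and a binding partner of a ribosomal protein.

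GL261 cells were profiled by single-cell RNA sequencing of transcript 3′ ends with unique molecular identifiers (UMIs), which count RNA molecules. Adherent cells grew attached to the flask in medium with 10% serum (FBS). Neurosphere cells grew for 12 days as floating aggregates in the same medium with Epidermal Growth Factor at 20 ng/ml, Fibroblast Growth Factor at 20 ng/ml and B-27 supplement at 1:50. Each culture gave 1 library, and both came from the same line. Adherent cells were detached with trypsin, while neurospheres were spun down, treated with trypsin and broken up through ever finer pipette tips, and both suspensions were then frozen in medium with 10% DMSO. Culture, library and dissociation cannot be told apart. With 1 library per culture no test was made, and the 95% intervals given below are exact and cover counting error only.

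After filtering, 5051 of 5764 adherent and 4276 of 4951 neurosphere cells were kept, with 67755289 and 81654257 UMIs in all and a median of 12076 and 16682 UMIs per cell. Only 9 barcodes of kept cells occurred in both libraries. GL261 is labelled astrocytoma, and the 8 astrocyte markers examined were uneven. Gfap had 30 UMIs in the adherent and 27 in the neurosphere library, Slc1a2 had 4 and 2, and Aqp4 had none in either. Aldh1l1 (168 and 350 UMIs), Aldoc (525 and 1111) and Gja1 (951 and 528) were detected at low counts. Slc1a3 (17148 and 5231 UMIs) and S100b (7437 and 16535 UMIs), which other glia also express, were present. The immune genes Ptprc, C1qa and Cd3e had at most 1 UMI per library, while Cd68 had 485 and 276 and Cd74 had 219 and 59. Summed stromal marker UMIs went from 0.000221% to 0.0308% of the total, led by Col1a1 (116 and 21368 UMIs) and Dcn (1 and 3606), while Pdgfrb went the other way (32 and 4). Of 8 oligodendrocyte lineage markers 5 were over 1.5-fold higher, against 47.9% of all genes, and 2 were lower, Mbp (log2 -0.82) and Pdgfra (log2 -0.22). Their sum went from 0.0529% to 0.203%. The part of these differences in the ribosomal protein values was not tested.

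A ribosome has a small subunit, which binds the mRNA and reads its codons against tRNAs, and a large subunit, which joins the amino acids and releases the growing chain through a tunnel. Ribosomal protein genes are transcribed in rough proportion to one another in all growing cells, and their RNAs are among the most abundant in the cytoplasm. Most of these mRNAs start with a C followed by a run of pyrimidines, the 5′ terminal oligopyrimidine (TOP) motif, through which Larp1 and the kinase Mtor control their translation and stability.

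Because the TOP motif sits at the very start of the RNA, the sequence around the annotated start site is shown for core genes at both ends of the range of change between the cultures: the 4 with the lowest and the 4 with the highest fold change among those with a single RefSeq start. Each line gives 30 bases of the sense strand, from 10 bases before the start site, read 5′ to 3′ from RefSeq on GRCm38.p6. Capitals mark the longest run of at least 6 pyrimidines that begins with C. The first 4 lines are the genes that were lowest in neurospheres relative to adherent cells, and the last 4 are those nearest to no difference.
Rpl31 (chr1:39367841-39367870, plus strand): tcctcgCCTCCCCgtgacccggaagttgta
Rpl38 (chr11:114668570-114668599, plus strand): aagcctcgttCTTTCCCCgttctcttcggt
Rpl18 (chr7:45718061-45718090, plus strand): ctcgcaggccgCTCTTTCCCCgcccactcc
Rpl35 (chr2:39005112-39005141, minus strand): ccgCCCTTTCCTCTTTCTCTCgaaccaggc
Rps12 (chr10:23787190-23787219, minus strand): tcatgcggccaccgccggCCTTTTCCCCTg
Rpl5 (chr5:107900518-107900547, plus strand): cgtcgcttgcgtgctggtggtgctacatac
Rps15a (chr7:118116128-118116157, minus strand): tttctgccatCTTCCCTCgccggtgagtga
Rps3a1 (chr3:86142649-86142678, minus strand): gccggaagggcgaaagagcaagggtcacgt

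Such a run lay in this window in 33 of the 57 core genes with a RefSeq entry (57.9%), against 24.9% of the 27025 genes in the table. The shorter words CTTTC or CTTTT on the sense strand, which can lie inside the same runs, occurred in 17 of 57 core genes (29.8%) and in 7.77% of all genes. At the low end of the list the run was present in every gene shown, Rpl31, Rpl38, Rpl18 and Rpl35. At the other end Rps12 and Rps15a had it, and Rpl5 and Rps3a1 had none in the window. The median log2 fold change was -0.80 over the 33 core genes with a run and -0.64 over the 24 without, so both sets were lower in neurospheres. A letter match at an annotated start is a description and does not locate the start used in these cells.

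The ribosomal protein pool took a much smaller part of the RNA in neurospheres. The 91 genes held 20034583 UMIs in adherent cells, 29.57% of all UMIs (29.56% to 29.58%), and 13483343 UMIs in neurosphere cells, 16.51% (16.50% to 16.52%). This was 1.79-fold lower in neurospheres, a log2 fold change of -0.841 (-0.842 to -0.840). The pool was also smaller in UMIs per cell, since the median cell held 3571 ribosomal protein UMIs in the adherent and 2686.5 in the neurosphere library. UMIs of all other genes went the other way, from a median of 8506 to 13900.5 per cell. Capture and sequencing may differ between libraries, so neither count gives the molecules per cell, and the part of capture and sequencing was not tested.

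**Figure D1:**
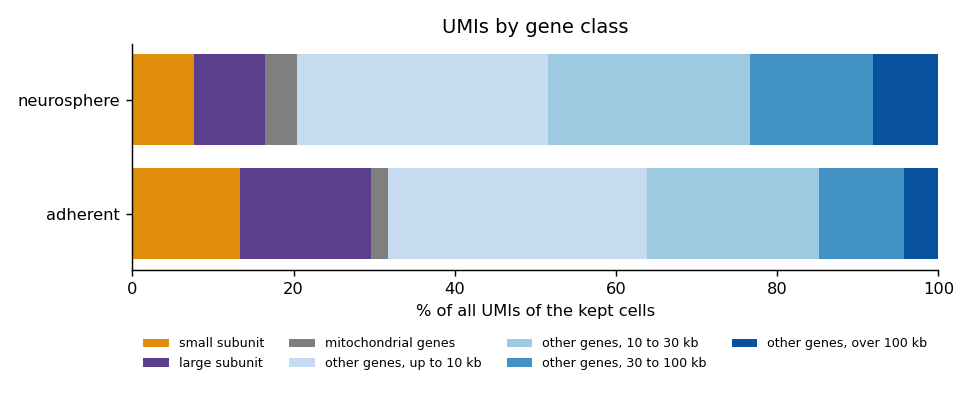
Share of all UMIs (percent, horizontal axis from 0 to 100) of the kept cells in the neurosphere library (upper bar) and the adherent library (lower bar), divided into small and large subunit genes, mitochondrial genes and all other genes by gene length in kilobases. Small subunit genes took 13.4% and 7.65% and large subunit genes 16.2% and 8.86% of adherent and neurosphere UMIs.

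The plot of UMIs by gene class shows which genes filled the space. Mitochondrially encoded genes went from 2.10% to 3.93% of UMIs, and without them the ribosomal protein share was 30.2% and 17.2%. Other genes up to 10 kb long held nearly the same share (32.1% and 31.1%). Genes of 10 to 30 kb went from 21.4% to 25.1%, genes of 30 to 100 kb from 10.6% to 15.2%, and genes over 100 kb from 4.28% to 8.15%. Longer genes thus had the larger increases, with a median log2 fold change of 0.36 up to 10 kb and 0.82 over 100 kb.

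Gene by gene, the change ran in 1 direction with an exception of few counts. Levels are given as CPM, the UMIs of a gene scaled to a library total of 1000000. Of the 91 genes, 87 summed to 50 UMIs or more, and 86 of these were lower in neurospheres, against 28.5% of the 14763 genes with that many UMIs. Over 1.5-fold lower were 61 of 87 (14.6% of all genes), and over 2-fold lower were 29 (9.52% of all genes). The median log2 fold change was -0.78, a 1.72-fold lower level, while the median of all genes was 0.54, and 47.9% of all genes were over 1.5-fold higher. Relative to the median gene the ribosomal protein genes were therefore 1.32 lower on the log2 scale. A rescaling of a whole library cancels out of this difference by construction. Other choices moved it. As ribosomal protein genes minus all genes, it was -1.06 with genes of at least 1 UMI and -1.13 with the gene length trend removed.

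Other abundant genes and the mitochondrial ribosome were set beside these values. Among 368 other nuclear-encoded genes that reached 50000 UMIs, 48.6% were lower in neurospheres and 21.7% were over 1.5-fold lower, with a median of 0.02. The proteins of the mitochondrial ribosome are encoded by nuclear genes named Mrps and Mrpl. Their 78 genes had a median of -0.16, with 49 lower, 10 over 1.5-fold lower and 6 over 1.5-fold higher, against 28.5%, 14.6% and 47.9% of all genes. The share over 1.5-fold lower was thus near that of all genes. A larger share was lower by any amount, a smaller one was over 1.5-fold higher, and the median lay below the 0.54 of all genes.

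**Figure D2:**
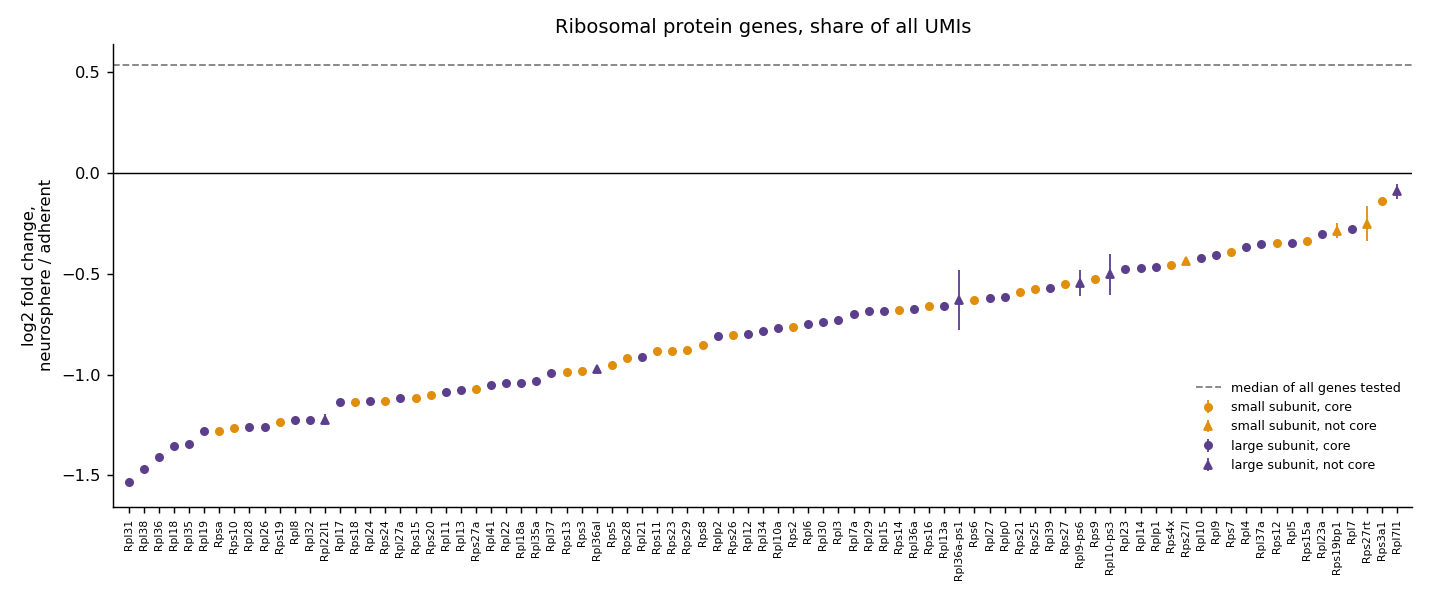
Log2 fold change (neurosphere over adherent, share of all UMIs) of 85 ribosomal protein genes with at least 1000 UMIs, ordered from lowest to highest, with exact 95% counting intervals (vertical lines, mostly hidden by the points). Every point lies below 0, from -1.53 for Rpl31 to -0.09 for Rpl7l1, and below the dashed line at the all-gene median of 0.54.

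Genes of both subunits were among those with the largest differences. Rpl31, at the rim of the tunnel exit of the large subunit (chromosome 1, 39367842 to 39371911, plus strand), went from 1139 to 394 CPM, 2.89-fold lower (log2 -1.53, -1.55 to -1.51). Rpl38, known for its part in translating Hox mRNAs in mouse embryos, went from 2687 to 972 CPM (log2 -1.47), and Rpl36 from 2565 to 966 CPM (log2 -1.41). Rpl18, another large subunit protein, went from 3981 to 1560 CPM (log2 -1.35), and Rpl35, which borders the tunnel exit, from 1034 to 407 CPM (log2 -1.35). Rpl19, which reaches across to the small subunit, went from 6605 to 2723 CPM (log2 -1.28), and Rpsa, first described as a laminin receptor, from 3823 to 1576 CPM (log2 -1.28). These 7 were at least 2.43-fold lower in neurospheres, and no counting interval came near 0.

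At the other end the levels were close to equal. Rps3a1, a small subunit protein at the platform where the mRNA leaves (chromosome 3, 86137940 to 86142702, minus strand), went from 3059 to 2784 CPM, 1.10-fold lower (log2 -0.14, -0.14 to -0.13). Rpl7, which lies by the 5S RNA, went from 2075 to 1715 CPM (log2 -0.28), and Rpl23a, a docking site at the tunnel exit, from 1231 to 998 CPM (log2 -0.30). Rps15a, of the small subunit body, went from 4487 to 3555 CPM (log2 -0.34), and Rpl5 from 1148 to 903 CPM (log2 -0.35). The other 3 genes of the 8 highest were no core proteins: Rpl7l1 (152.5 to 143 CPM, log2 -0.09), the Rps27 retrogene Rps27rt (31.5 to 26.5 CPM, log2 -0.25) and Rps19bp1 (168 to 138 CPM, log2 -0.29). Neighbours in this order often had overlapping counting intervals, as for Rps12, Rpl5 and Rps15a.

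The pool therefore changed in composition as well as in size. Within the ribosomal protein UMIs, Rpl31 went from 0.385% to 0.239% and Rps3a1 from 1.03% to 1.69%. To turn the adherent composition into the neurosphere composition, 9.43% of the pool would have to move from some genes to others. All core genes were nonetheless detected almost everywhere, since each had a UMI in at least 97.6% of adherent and 96.2% of neurosphere cells, the lowest being Rpl4 and Rpl31. Free RNA in the droplets can add to such shares, and its part was not tested.

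Both subunits were lower to about the same extent. Small subunit genes went from 13.4% to 7.65% of UMIs (pooled log2 -0.81) and large subunit genes from 16.2% to 8.86% (pooled log2 -0.87). Small subunit RNAs were 45.3% of the pool in adherent and 46.3% in neurosphere cells. The median gene gave the opposite order, -0.83 over the 34 small subunit genes and -0.77 over the 53 large subunit genes tested. All 34 small subunit genes were lower, 23 of them over 1.5-fold and 9 over 2-fold. Of the 53 large subunit genes 52 were lower, 38 over 1.5-fold and 20 over 2-fold. Of all genes 28.5% were lower, 14.6% over 1.5-fold and 9.52% over 2-fold. The sign of the small against large difference thus depended on whether genes or molecules were weighed equally.

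Functional groups within the ribosome were spread over the same range. The P stalk, which recruits the elongation factors, had 4 genes, all lower like 86 of the 87 ribosomal protein genes tested (28.5% of all genes). They were Rplp2 (3438 to 1962 CPM, log2 -0.81), Rpl12 (1867 to 1075 CPM, log2 -0.80), Rplp0 (8430 to 5513 CPM, log2 -0.61) and Rplp1 (3522 to 2549 CPM, log2 -0.47). The 5S particle proteins Rpl5 and Rpl11, which bind each other and can hold the p53 inhibitor Mdm2, differed from one another. Rpl11 went from 2441 to 1150 CPM (log2 -1.09) and Rpl5 only from 1148 to 903 CPM. The tunnel proteins were likewise unequal, with Rpl17 at -1.13 (3295 to 1501 CPM), Rpl39 at -0.57 (2183 to 1470 CPM) and Rpl4 at -0.37 (690 to 535 CPM) on the log2 scale.

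For Diamond-Blackfan anemia, a failure of red cell formation caused by loss of 1 copy of a ribosomal protein gene, 9 genes were listed. The list was chosen for this comparison and was not checked to be complete, so its median need not hold for all genes of the disease. That median was -1.09, with 7 over 1.5-fold and 6 over 2-fold lower. Over the 87 ribosomal protein genes these counts were 61 and 29 (14.6% and 9.52% of all genes). Rps10, of the small subunit head, went from 5103 to 2125 CPM (log2 -1.26), Rps19, the gene most often mutated in the disease, from 4571 to 1944 CPM (log2 -1.23), and Rps24 from 4109 to 1879 CPM (log2 -1.13). Rpl35a (2928 to 1433 CPM, log2 -1.03) and Rps26 (3086 to 1770 CPM, log2 -0.80) followed, and Rps7 (2874 to 2193 CPM, log2 -0.39) was near Rpl5 at the top.

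The members that are not core proteins had a median of -0.47 over the 10 tested. Rpl22l1, the paralog that can take the place of Rpl22, went from 548 to 235 CPM (log2 -1.22), beside Rpl22 itself at -1.04 (3230 to 1570 CPM). Rpl36al was at -0.97 (1371 to 700.2 CPM), its near copies Rpl36a at -0.67 (814 to 511 CPM) and Rpl36a-ps1 at -0.63 (851 and 663 UMIs). Rps27l, a paralog of Rps27 that p53 can induce, was at -0.44 (1166 to 862.5 CPM) and Rps27 at -0.55 (1139 to 778 CPM). The copies Rpl9-ps6 (4309 and 3559 UMIs) and Rpl10-ps3 (1715 and 1461 UMIs) were at -0.55 and -0.50. Where copies in these families share nearly identical sequence, the split of UMIs among them is uncertain.

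Rpl3l, which replaces Rpl3 in heart and skeletal muscle, was the only one of the 87 genes tested that was higher in neurospheres, with 13 UMIs in the adherent and 62 in the neurosphere library (log2 1.98, 1.11 to 2.97). It reached the minimum of 50 UMIs through the neurosphere library, so it had to be higher to be counted. The testis paralogs Rpl10l (0 and 2 UMIs) and Rpl39l (1 and 0 UMIs) and the pseudogenes Rpl36-ps4 (1 and 0 UMIs) and Rpl9-ps1 (2 and 1 UMIs) were at most at the level of 3 UMIs that a count of 0 allows, and no fold was computed for them.

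Ribosomal proteins whose symbols fall outside the rule were lower too. Fau, which encodes a ubiquitin-like protein fused to a small subunit protein, went from 4296 to 1851 CPM (log2 -1.21). Rps27a, the ubiquitin fusion among the members, went from 9994 to 4757 CPM (log2 -1.07). Rack1, a signalling scaffold on the small subunit, went from 1903 to 1153 CPM (log2 -0.72).

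Genes that share the TOP motif or serve the ribosome without being part of it were mixed in direction on this scale. Of 15 other genes with TOP mRNAs, mostly translation factors but also Npm1, Tpt1, Naca, Btf3 and the RNA-binding protein gene Hnrnpa1, 6 were lower, 3 of them over 1.5-fold, and 2 were over 1.5-fold higher, with a median of 0.25. Of all genes 28.5% were lower, 14.6% over 1.5-fold lower and 47.9% over 1.5-fold higher, and their median of 0.54 lay above that of the list. Lowest were the subunits of the elongation factor complex that recharges Eef1a1, namely Eef1d (991 to 533 CPM, log2 -0.89), Eef1g (756 to 487 CPM, log2 -0.63) and Eef1b2 (1330 to 861 CPM, log2 -0.63). Eef1a1 itself, which brings tRNAs to the ribosome, went from 4834 to 8875 CPM (log2 0.88), followed by Hnrnpa1 (301 to 540 CPM, log2 0.84) and Eif3e (778 to 1056 CPM, log2 0.44). Eef1a1 and its partners thus went in opposite directions.

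Genes for making ribosomes lay between the ribosomal protein genes and the median of all genes. Of 25 ribosome biogenesis genes, 9 were lower, 1 of them over 1.5-fold, and 4 were over 1.5-fold higher, with a median of 0.16 against 0.54 for all genes, of which 28.5% were lower and 47.9% over 1.5-fold higher. Nhp2, a snoRNP protein, was lowest (731 to 383 CPM, log2 -0.93), then nucleolin, Ncl (655 to 448 CPM, log2 -0.55), and Mrto4, a large subunit assembly factor (308 to 215 CPM, log2 -0.52). Ubtf, which opens the ribosomal RNA genes for RNA polymerase I, was highest (26.4 to 81.7 CPM, log2 1.63), then Rrs1 (67.2 to 170.0 CPM, log2 1.34) and Nop10, a partner of Nhp2 in the same particle (499.7 to 849 CPM, log2 0.77).

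Regulators of ribosomal protein genes or of TOP mRNAs were few and varied. Of 10 listed, 9 were tested and Mycn had no UMI in either library. Their median was 0.62, near the 0.54 of all genes, with 1 over 1.5-fold lower and 5 over 1.5-fold higher (14.6% and 47.9% of all genes). Eif4ebp1, the translation repressor that Mtor switches off, went from 658 to 197 CPM (log2 -1.74), and its relative Eif4ebp2 the other way, from 30.6 to 70.3 CPM (log2 1.20). Larp1 (85.3 to 72.9 CPM, log2 -0.23) and Mtor (20.1 to 19.7 CPM, log2 -0.03, -0.14 to 0.07) were near level. Max (21.1 to 61.0 CPM, log2 1.53) and its partner Myc (40.4 to 79.4 CPM, log2 0.97), which drive growth genes, were higher in neurospheres.

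The direction of groups near 0 depends on the scale. With the trimmed mean of M values (TMM), which centres on the bulk of genes, all log2 values drop by the same 0.42, and 6643 of 14763 genes (45%) were then lower in place of 4205. On that scale 12 of the 15 other TOP genes (median -0.17) and 20 of 25 biogenesis genes (median -0.27) were lower, so their direction flips. The 368 abundant genes had a median of -0.41 there and the mitochondrial ribosomal protein genes one of -0.58, with 39 of 78 over 1.5-fold lower (23.7% of all genes on that scale). The regulators had a median of 0.19, with 2 over 1.5-fold lower and 2 higher (23.7% and 29.1% of all genes), while 86 of 87 ribosomal protein genes were lower with a median of -1.21.

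Among the 77 core genes, log2 fold change was compared with properties the symbols do not use. It had a Spearman correlation of -0.32 with the GC content of the transcript (41.3% to 60.8%), and the median was -0.72 in the lower and -0.88 in the higher GC range. The correlation was -0.23 with adherent UMIs, with medians of -0.71 in the lower and -1.01 in the higher range. It was 0.18 with coding length (medians -0.90 and -0.76) and 0.06 with transcript length (-0.93 and -0.76). With gene length it was -0.09 (-0.75 and -0.93). Many ribosomal protein genes carry a small nucleolar RNA in an intron. The 30 core genes with an annotated snoRNA inside had a median of -0.78 and the 47 without one -0.88. All of these are correlations across genes of the same 2 libraries, and genes are not independent replicates.

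Cell by cell, the 2 cultures hardly overlapped. In adherent cells the ribosomal protein share had a median of 29.6% of a cell's UMIs, and its 5th and 95th percentiles were 22.7% and 34.9%. In neurosphere cells the median was 16.1%, and these percentiles were 9.24% and 21.3%. Only 177 adherent cells (3.50%) lay below the 95th percentile of neurosphere cells, and 77 neurosphere cells (1.80%) above the 5th percentile of adherent cells. The spread was far wider than counting error, with an SD of 4.24 percentage points in adherent cells against 0.439 from counting alone, and 3.61 against 0.308 in neurosphere cells.

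**Figure D3:**
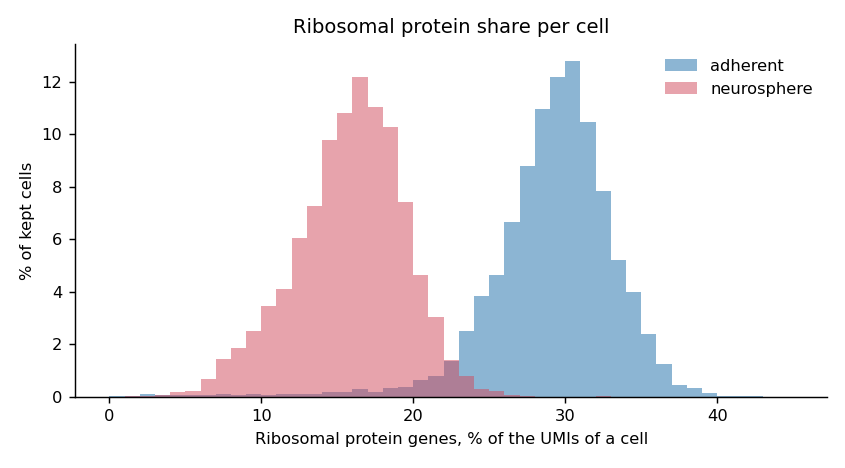
Percent of kept cells (vertical axis) at each ribosomal protein share of a cell's UMIs (horizontal axis, percent, bins of 1), for adherent cells (blue) and neurosphere cells (red). The adherent cells centre on 29.6% with a low tail, and the neurosphere cells on 16.1%.

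Both subunits varied together from cell to cell. The shares of small and large subunit UMIs had a Spearman correlation of 0.86 over 5051 adherent and 0.94 over 4276 neurosphere cells, which share the total of each cell as denominator. The small subunit part of the pool stayed near 45.3% and 46.1% in the median cell, with an SD of 1.65 and 1.97 percentage points against 0.973 and 1.12 from counting. In each library 14 cells had under 5% ribosomal protein UMIs, and mitochondrial UMIs made up 14.9% and 9.86% of the total in those cells. Over all kept cells the share had a Spearman correlation of -0.22 and -0.21 with the mitochondrial percentage.

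Deeper cells had a larger ribosomal protein share, more so in neurospheres. Cells were ordered by UMIs and divided into 4 bins of equal cell number. From the shallowest to the deepest bin, the share was 28.3%, 29.8%, 29.3% and 30.02% in adherent cells and 13.7%, 15.8%, 16.7% and 17.4% in neurosphere cells. The Spearman correlation of share and depth was 0.12 in adherent and 0.38 in neurosphere cells, and 0.02 and 0.32 when depth was counted on other genes alone. The mitochondrial percentage went the other way over the same bins, from 2.79% to 1.86% in adherent and from 5.03% to 3.42% in neurosphere cells. Without mitochondrial UMIs the deepest minus the shallowest bin was still 1.51 percentage points in adherent and 3.55 in neurosphere cells, against 1.76 and 3.66 with them.

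**Figure D4:**
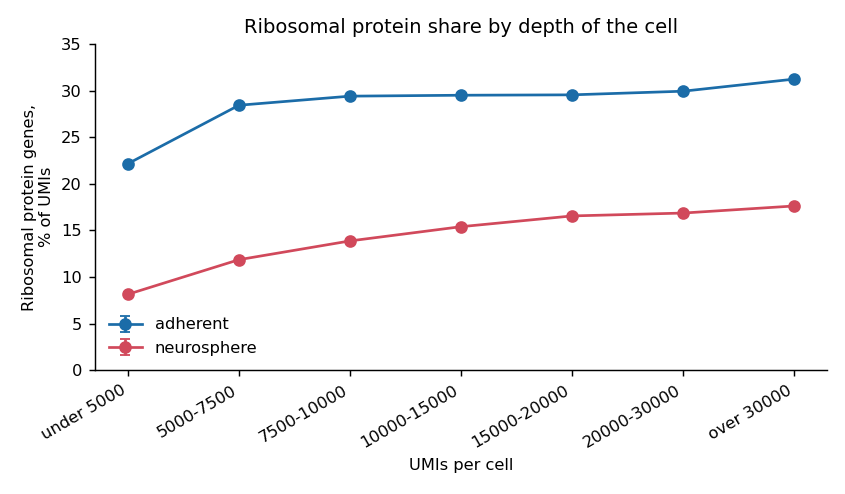
Ribosomal protein share (percent of UMIs, vertical axis from 0) of cells pooled by UMIs per cell (horizontal axis), for adherent cells (blue) and neurosphere cells (red), with 95% counting intervals smaller than the points. The adherent line lies above the neurosphere line in all 7 ranges.

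At matched depth the difference between the cultures held. In cells of 10000 to 15000 UMIs the share was 29.5% in 2068 adherent and 15.4% in 1067 neurosphere cells (log2 -0.94). The plot of share by depth shows the gap narrowing from log2 -1.26 at 5000 to 7500 UMIs to -0.83 above 30000 UMIs. Below 5000 UMIs it was -1.44, but only 11 neurosphere cells were that shallow. In the 10000 to 15000 range all 86 genes with at least 1000 UMIs were lower in neurospheres, 66 over 1.5-fold, with a median of -0.86. Of the 9057 genes with as many UMIs, 27.3% were lower in these cells and 12.1% over 1.5-fold lower. Their order hardly changed, with a Spearman correlation of 0.98 with the values from all cells, which include these cells.

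Single genes did not all follow depth alike. In neurospheres, 83 of 86 genes took a larger share of UMIs in the deepest than in the shallowest bin, against 38.3% of the 9057 genes with as many UMIs. The difference was widest in Rps15 (log2 0.93) and Rps2 (log2 0.83), both of the small subunit. Rps27rt (log2 -0.06) and Rpl39 (log2 -0.04) were near level. In adherent cells 66 of 86 genes were higher in the deepest bin, against 31.2% of those 9057 genes, with Rpl6 (log2 0.38) highest and Rplp1 (log2 -0.36) lowest.

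Cell cycle genes were compared next, with cells thinned to 5000 UMIs and ordered by the UMIs of a G1/S list (43 genes of DNA replication) or a G2/M list (54 genes of mitosis). Both lists took more of the UMIs in neurospheres, going from 0.164% to 0.271% for G1/S and from 0.661% to 0.771% for G2/M. The median G2/M gene was at 0.22 on this scale but at -0.21 with TMM, where 37 of 54 were lower, so its direction flips. In adherent cells the ribosomal protein share went down as G1/S UMIs went up, through 30.4%, 30.3%, 29.5% and 28.5% over 4 bins of equal cell number, and by G2/M UMIs through 30.2%, 29.99%, 29.6% and 29.1%. In neurospheres it was 15.9%, 16.9%, 16.7% and 16.3% by G1/S and 16.0%, 16.7%, 17.3% and 15.9% by G2/M. Cells high in cycle genes were also deeper. From the lowest to the highest G1/S bin the median cell went from 10665 to 13011.5 UMIs in adherent and from 11228 to 19327 in neurosphere cells.

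When the bins were taken within each of 10 depth classes, both cultures showed the same direction. The highest minus the lowest G1/S bin was then -1.93 percentage points in adherent and -1.03 in neurosphere cells, and for G2/M -1.46 and -1.9999. Within the same depth classes, counting the lists among 3000 UMIs outside the ribosomal protein and mitochondrial genes, a choice made after seeing the data, gave -1.29 and -0.63 for G1/S and -0.94 and -1.50 for G2/M. Without depth classes, lists counted that way had Spearman correlations with the share of -0.13 (G1/S) and -0.07 (G2/M) in adherent cells. In neurosphere cells they were 0.09 and 0.07, opposite in sign to the differences within depth classes. A correlation over cells and a difference of bins are unlike measures, so the part of the depth classes in that turn was not isolated. In the first count the lists and the ribosomal protein genes draw on the same 5000 UMIs, and in the second they do not.

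**Figure D5:**
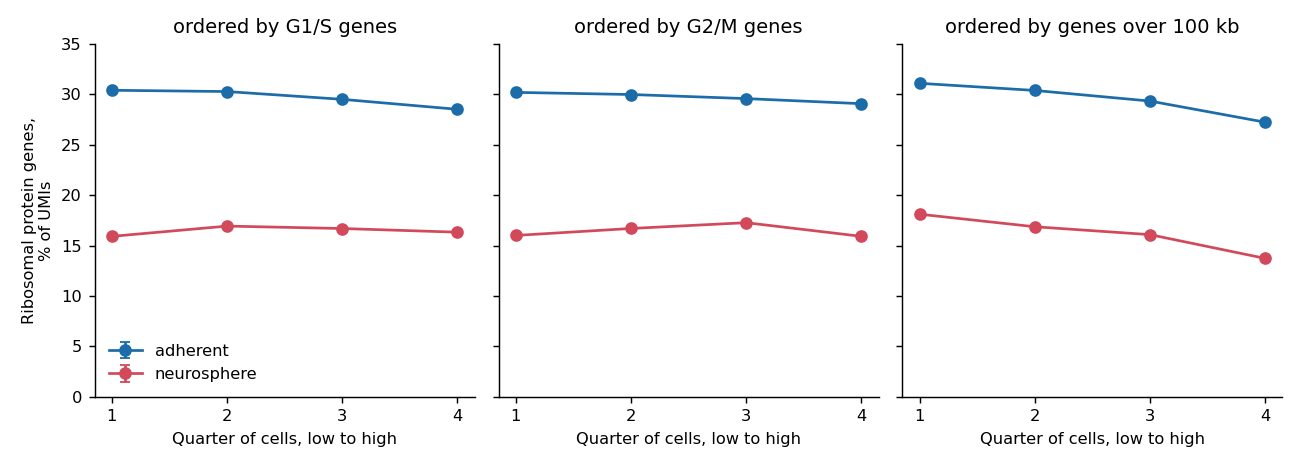
Ribosomal protein share (percent of UMIs, vertical axis from 0) in 4 bins of cells ordered from low to high by UMIs of G1/S genes, G2/M genes or genes over 100 kb among 5000 thinned UMIs (horizontal axis), for adherent cells (blue) and neurosphere cells (red). The steepest slope is that by genes over 100 kb, from 31.1% to 27.2% and from 18.1% to 13.7%.

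The difference between the cultures was present at every level of cycle genes. With cells divided at the median of both lists over the 2 libraries, cells low in both had a share of 30.5% and 16.0% (log2 -0.93). Cells high in G1/S genes alone had 29.5% and 17.3% (log2 -0.77), cells high in G2/M genes alone 30.03% and 17.4% (log2 -0.79), and cells high in both 28.5% and 16.4% (log2 -0.79).

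By G2/M genes, Rps19bp1 and Rpl7l1 had the highest values of the 86 genes in both cultures. On the share of all UMIs, Rps19bp1, which binds Rps19 and also the deacetylase Sirt1, was higher in the top than in the bottom G2/M bin by a log2 of 1.00 in neurosphere and 0.32 in adherent cells. Rpl7l1, a nucleolar relative of Rpl7, was higher by 0.61 and 0.24. Neither is a core protein, and the median gene changed by 0.01 and -0.06. The lowest value in adherent cells was that of Rpl10-ps3, -0.29. In neurospheres Rps28 had the lowest value over the same bins, -0.25. The median neurosphere cell went from 10831 UMIs in the lowest to 21880 in the highest G2/M bin. From the shallowest to the deepest bin by UMIs, Rps19bp1 was higher by 0.70 and Rpl7l1 by 0.56 in neurospheres, where the median gene changed by 0.34. In adherent cells these values were 0.35, 0.31 and 0.09. The part of depth in the G2/M values of single genes was not tested.

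Cells with more UMIs of long genes had a smaller ribosomal protein share. Over cells thinned to 5000 UMIs, the ribosomal protein share and the UMIs of genes over 100 kb had a Spearman correlation of -0.47 in 4841 adherent and -0.48 in 4265 neurosphere cells. With the long genes counted only among 3000 UMIs of other genes it was -0.36 and -0.41. For a list of nuclear-retained RNAs that includes Malat1 and Neat1 the correlations were -0.21 and -0.42. Ribosome biogenesis genes went with the share weakly, at -0.03 and 0.20. Neurosphere cells high in long genes were also shallower, with a median of 21246 UMIs in the lowest and 11649 in the highest of the 4 bins, and their mitochondrial percentage was 3.41% and 4.70%. The part of depth, mitochondrial UMIs and nuclear RNA content in these correlations was not tested.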

How the data were processed

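Both libraries were deposited by the authors as tables of raw UMI counts per gene and called cell, made with Cell Ranger 7.0.1 against mm10 per the submitters' processing notes. The setting for intronic reads is not given in the sources used here. As in the study's methods, mitochondrial genes and 101 ribosomal symbols were set aside to filter cells, and cells with at least 1000 UMIs and 1250 (adherent) or 2250 (neurosphere) genes were kept, slightly fewer in both libraries than the study states. All genes were then restored, and counts were divided by the library's total over all genes. No doublets were removed, and an alternative leaves out cells above the 95th percentile of UMIs.

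UMIs were summed over kept cells, since cells are not replicates. Ratios have exact conditional and shares exact Clopper-Pearson 95% intervals (scipy 1.17.1), checked on simulated data. Only genes that summed to 50 UMIs or more were compared, and a gene was counted as lower or higher by size alone (1.5-fold or 2-fold). Named genes are the 8 lowest and 8 highest members with at least 1000 UMIs, every non-core member, the P stalk, 5S, exit tunnel and Diamond-Blackfan genes, the 3 ribosomal proteins outside the symbol rule, and the 3 lowest and 3 highest genes of the other lists. The results of 2 genes that this rule names are not reported here. Rps15, Rps2, Rpl6, Rpl39 and Rps28 by depth or cycle, and Rpl22, Rps27, Rpl36a, Rps27a and Rps12, were named after their values were seen. The members and lists were chosen with earlier results of these data known. Per-cell scores used cells with at least 5000 UMIs thinned to that number. Gene positions and lengths are from GENCODE on GRCm38, the assembly that mm10 denotes, and start site sequences from RefSeq on GRCm38.p6. TMM factors came from edgeR 4.0.16. Reads shared by near-identical copies may be split or lost in counting.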

Additional observations from a re-analysis of the deposited data

Results flagged for a closer look

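The end bins by G1/S genes differed in opposite directions in the 2 cultures. From the lowest to the highest of 4 bins of cells the ribosomal protein share changed by -1.89 percentage points in adherent cells and by 0.413 in neurosphere cells. The neurosphere bins held 15.9%, 16.9%, 16.7% and 16.3%, so the share went down after the second bin there too. The difference between the cultures was not tested. Within 10 classes of depth the neurosphere value turned to -1.03.

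The barcodes left out by the cell filter also held ribosomal protein UMIs, 14.3% of the total over 713 adherent barcodes and 7.88% over 675 neurosphere barcodes. Mitochondrial genes made up 35.1% and 43.3% of the UMIs of these barcodes, and without them the shares were 22.1% and 13.9%. The adherent share was again the higher one.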

How the results depend on the processing

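Each culture has 1 library, so no value here has a replicate check, and intervals cover counting error only. No paired analysis was possible because each culture has 1 library and the labels give no replicate numbers. The counting intervals are so narrow that most alternatives moved a value beyond them. No alternative turned the sign of the pool, the median gene or the small minus large difference of medians, which is opposite in sign to that of the pooled UMIs, and the count of genes over 1.5-fold lower ran from 46 (gene length trend removed) to 84 (TMM) around 61.

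The pool's log2 fold change of -0.841 was -0.843 in all called cells, -0.842 with the neurosphere minimum of genes per cell in both libraries, -0.857 without cells above the 95th percentile of UMIs, -0.883 as a mean over cells, -0.813 without mitochondrial genes in the total, -1.06 without mitochondrial and ribosomal protein genes in it, and -1.27 with TMM. Those last 2 scalings lower the median of all genes by 0.22 and 0.42. In the order of the last 5 of these settings the median gene was -0.80, -0.84, -0.75, -1.0002 and -1.21. It was -0.77 with at least 1 UMI, -0.81 over core proteins and -0.61 with the gene length trend removed.

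The small minus large median of -0.057 became -0.052 with that gene minimum in both libraries, -0.085 without the deepest cells, -0.097 as a mean over cells, -0.052 with at least 1000 UMIs, -0.080 with at least 1 UMI, -0.087 over core proteins and -0.0093 with the length trend removed.

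Deepest minus shallowest cells gave 1.76 percentage points in adherent and 3.66 in neurosphere cells. This was 1.51 and 3.55 without mitochondrial UMIs, 1.40 and 3.59 in cells under 10% mitochondrial UMIs, 1.49 and 3.35 without the deepest cells, and 0.586 and 2.87 with depth counted on other genes.

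By G1/S genes the adherent difference of -1.89 was -1.94 without mitochondrial UMIs, -1.93 within depth classes and -1.29 within depth classes with the list also counted among other genes, an alternative added after seeing the data that changes both choices. By G2/M genes it went from -1.12 to -1.21, -1.46 and -0.943 in the same settings, and to -1.30 without the deepest cells. In neurospheres the G1/S difference of 0.413 was 0.277 without mitochondrial UMIs, 0.374 under 10% mitochondrial UMIs and 0.333 without the deepest cells, and it reversed within depth classes (-1.03) and there with the list counted among other genes (-0.629). Cells high in G1/S genes were deeper in both libraries, and the cause was not tested. The G2/M difference of -0.088 was -0.338, -0.142, -0.197, -1.9999 and -1.50 in these 5 settings. Values by cell cycle genes in neurospheres thus depend on how depth is handled.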
